A study of Mus musculus with 8 samples.

Results

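The p53 pathway was followed through 31 genes chosen by name: Trp53 itself, its regulators Mdm2, Mdm4, Ppm1d and Cdkn2a, and 26 genes known as p53 targets in mouse or human, with roles in arrest, death, repair and metabolism. All 31 were among the 24421 gene symbols counted, 30 had at least 1 read, and 28 passed the filter on low counts and were tested. The RNA came from leukemic bone marrow cells of C57BL/6 mice that MLL-AF9, a fusion oncogene of acute leukemia, had transformed; the marrow was frozen, thawed and sorted for high c-KIT before RNA-seq. The Ikzf2 KO group (source Ikzf2Δ/Δ mice) and the Ikzf2 WT group (source Ikzf2f/f mice) had 2 libraries each. Ikzf2 encodes Helios, a zinc finger factor of the Ikaros family. By that label the WT cells carried floxed, undeleted alleles, and all 4 libraries shared the MLL-AF9 oncogene, the strain and the sort for c-KIT, the receptor of stem cell factor. The labels give neither the age or sex of the mice nor the Cre driver used, and it is not stated that the replicates were separate animals or that cells of a recipient were removed. The p-values therefore measure only how these libraries spread, part of which may be technical. The 4 chromatin accessibility samples of the series were not analysed here.

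p53 is a transcription factor that is made constantly and destroyed as fast: MDM2 marks it for the proteasome, MDM4 masks its activation domain, and DNA damage or oncogene stress, the second through the ARF product of Cdkn2a, releases it from both. Freed p53 binds response elements beside its targets, among them Cdkn1a for cell cycle arrest, death receptors for apoptosis, and Mdm2 itself, which closes the loop. In blood stem and progenitor cells p53 is known to hold back division and self-renewal, and leukemias with MLL fusions usually keep the gene intact.

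Gene counts per library were 16006081 and 18017545 in KO and 19286090 and 18711837 in WT, and 3 counts corresponded to between 0.150 and 0.186 CPM, the gene counts scaled to a common library size by TMM and the unit of all levels below. The targeted gene Ikzf2 had 10.9 and 26.5 CPM in KO and 283 and 271 CPM in WT. The sort marker Kit had 236 and 376 CPM in KO and 216 and 329.6 CPM in WT. Hoxa9, which MLL fusions keep on, had 312 and 279.6 CPM in KO and 318 and 334 CPM in WT, so both genes were present in every library. Xist, transcribed from the inactive X, had 13458 and 6 counts in KO and 12 and 9 counts in WT. Ddx3y, on the Y chromosome, had 1 and 1194 counts in KO and 2190 and 1931 counts in WT. By these genes KO replicate 1 was of female type and the other libraries of male type, so sex differed within the KO group. Of 10 mature neutrophil markers, none at 0 in every library, 10 were above 0 in log2 fold change. With a library left out, 3 of them changed sign. DESeq2 called 4 higher, where it called 1.56% of all genes with an adjusted p higher in KO. Their summed CPM was 12916 and 18414 in KO and 851 and 3952 in WT. For comparison, 6 B cell markers summed to 35.3 and 25.2 in KO and 23.3 and 17.7 in WT, and 8 T and NK cell markers, 2 of them at 0 in every library, to 95.5 and 135 in KO and 104 and 68.9 in WT. Of 10 monocyte and dendritic cell markers, none at 0 in every library, 6 of 8 tested were above 0. Of the 8, 3 changed sign with a library left out. DESeq2 called 4 higher (F13a1, Csf1r, H2-Aa and Cd74). The summed CPM of the 10 markers was 3238 and 1862 in KO and 2279.5 and 1117 in WT. Among these, Cd74 had 821 and 58.6 CPM in KO and 2.45 and 7.96 CPM in WT, with KO replicate 1 far above the other libraries. Of 6 mast cell and basophil markers, none at 0 in every library, 4 of 5 tested were above 0. Of the 5, 2 changed sign with a library left out. Gata2, the tested marker below 0, was called lower by DESeq2, which called 1.07% of genes with an adjusted p lower in KO. Gata2 had 14.0 and 49.3 CPM in KO and 74.4 and 234 CPM in WT. The set summed to 114 and 85.7 in KO and 130.1 and 268 in WT, with Gata2 making up most of the WT sums. The 4 megakaryocyte markers, mostly Itga2b in WT, summed to 7.18 and 24.7 in KO and 31.7 and 115 in WT. The 6 stromal markers, mostly Pecam1, summed to 72.1 and 154 in KO and 236 and 258 in WT. The 9 erythroid markers, 6 at 0 in every library, summed to 185 and 260 in KO and 203 and 137 in WT. DESeq2 called 0 of the megakaryocyte, stromal or erythroid markers. A list of 10 leukemic progenitor markers, none at 0 in every library and 4 above 0, summed to 9015 and 6408 in KO and 2419 and 2535 in WT. DESeq2 called 2 of them, Mpo and Csf1r, both higher in KO. Mpo, a granule enzyme gene, had 7073 and 4311 CPM in KO and 286 and 343 CPM in WT. Without Mpo, the other 9 summed to 1942 and 2097 in KO and 2133 and 2192 in WT. The part of these marker signals in the results below was not tested. In sorted bulk cells, fewer cells of a type and less RNA per cell cannot be told apart.

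p53 acts through response elements made of a pair of like arms, so the promoters of the genes were searched for them. The consensus of a single arm, called here the p53 decamer, is 10 letters long and reads the same on both strands. It was searched in the 250 bases before each transcription start of the RefSeq promoter table (GRCm38.p6), in which 23 of the 31 genes had an entry. The genes were listed as known p53 targets, so their share is a description. A decamer lay in 9 of these 23 genes (39.1%), against 7.18% of the 9599 tested genes with an entry. By promoter, the shares were 30% of 30 and 5.97% of 12157. The 9 genes were Trp53, Mdm2, Ppm1d, Cdkn1a, Ccng1, Ei24, Aen, Polk and Sesn1. In the wider p53 list described below, a decamer lay in 7 of 71 genes with an entry (9.86%). A match is a description of letters and shows no binding, and many p53 elements are known to lie outside such a window.

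The windows of Cdkn1a, Mdm2, Trp53, Ccng1 and Aen are shown because these genes span the loop from p53 to its regulator and its arrest and death targets. Each runs 5′ to 3′ on the gene's strand, with the decamer in capitals.
Cdkn1a, chr17:29090888-29090977, plus strand: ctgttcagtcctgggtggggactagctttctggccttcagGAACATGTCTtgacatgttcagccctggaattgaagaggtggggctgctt
Mdm2, chr10:117710895-117710984, minus strand: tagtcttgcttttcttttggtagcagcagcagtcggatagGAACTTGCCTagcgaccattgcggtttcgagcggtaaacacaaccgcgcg
Trp53, chr11:69580244-69580333, plus strand: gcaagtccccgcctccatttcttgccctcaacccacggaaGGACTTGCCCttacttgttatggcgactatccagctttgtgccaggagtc
Ccng1, chr11:40755422-40755511, minus strand: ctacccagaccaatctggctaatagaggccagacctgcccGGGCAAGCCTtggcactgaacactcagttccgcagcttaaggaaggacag
Aen, chr7:78895897-78895986, plus strand: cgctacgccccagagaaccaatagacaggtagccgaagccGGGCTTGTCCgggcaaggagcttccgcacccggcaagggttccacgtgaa
The Cdkn1a decamer began 51 bases before the first of the gene's listed starts. The 10 letters after it, tgacatgttc, missed the consensus at 1 position, and the 10 letters before the Ccng1 decamer, agacctgccc, also missed it at 1 position. For Mdm2, Trp53 and Aen, the 10 letters before the decamer missed the consensus at 6, 6 and 4 positions, and the 10 letters after it at 5, 3 and 3 positions. Cdkn1a also held a further decamer 73 bases before that start, and the decamer of Aen stood before the second of its listed starts. The log2 fold changes of the 9 genes with a decamer ran from -0.34 to 0.57 in KO over WT, with a median of 0.13 and 6 of 9 above 0, and those of the 12 tested genes with an entry but no decamer ran from -1.57 to 0.88, with a median of 0.033 and 6 of 12 above 0.

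Across the pathway, no member differed between KO and WT cells past the adjusted threshold of 0.05. By edgeR's quasi-likelihood test 0 of 28 members were called, with 0% of all 12623 genes called, and the lowest adjusted p among the members was 0.486. DESeq2 called 0 of the members higher and 0 lower, where it called 2.62% of the genes with an adjusted p, 1.56% higher and 1.07% lower in KO. limma voom called 0. At an unadjusted p under 0.05, edgeR had 3 of 28 members (Trp53inp1, Ddb2 and Tnfrsf10b), voom had 3, and DESeq2 had 6 of 30 (Zmat3, Cdkn2a and Perp besides), where the share of all genes was 7.67% by edgeR and 7.59% by DESeq2. The fold changes balanced: 14 members were above 0 and 14 below, and the median log2 fold change was 0.0025, against -0.0043 over all tested genes. The median size of change, 0.27 on the log2 scale, was close to the 0.26 over all genes. The KO and WT libraries did not overlap in 11 of 28 members, 5 above and 6 below, while 37.2% of all tested genes did so, 18.1% above and 19.1% below. With a 95% interval, 14 of the 28 members (and 5399 of all 12623 tested genes) lay within a 2-fold change in either direction, and the intervals of the other members reached past it.

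**Figure D1:**
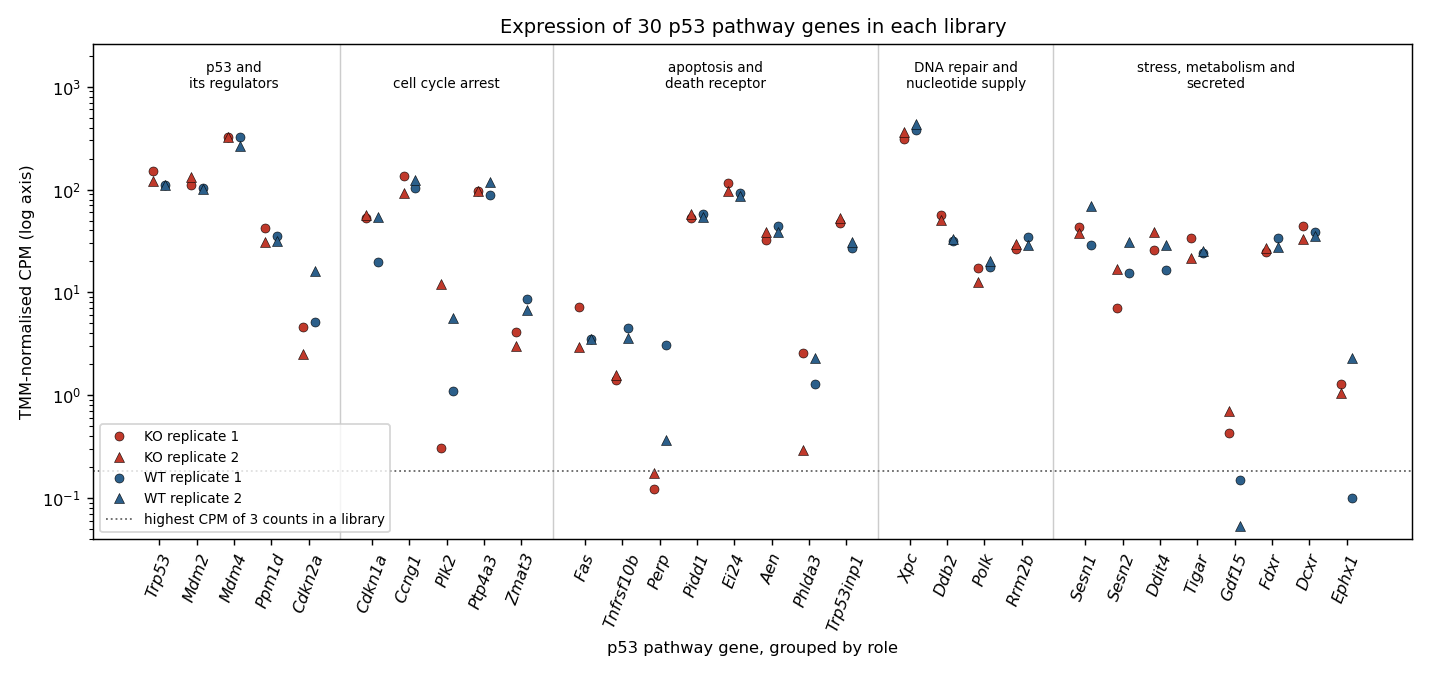
TMM-normalised CPM (log axis) of the 30 p53 pathway genes with a read, in KO (red) and WT (blue) libraries, with circles for replicate 1 and triangles for replicate 2. The dotted line is the highest CPM that 3 counts give in a library, and Plk2, Perp, Ephx1, Gdf15 and Phlda3 spread the most over the 4 libraries.

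Trp53, Mdm2, Mdm4 and Ppm1d were each present in all libraries at similar levels. Trp53 (chromosome 11, 69580348 to 69591873) had 151 and 122 CPM in KO and 110.5 and 112 CPM in WT. Both KO libraries were above both WT libraries, which themselves lay close together. The log2 fold change was 0.30 (SE 0.21, adjusted p = 0.851) by edgeR, with a 95% interval from -0.22 to 0.81. Mdm2, the ubiquitin ligase and feedback target, had 111 and 132 CPM in KO and 103 and 101 CPM in WT. Its KO libraries also lay above the WT libraries without overlap, with a log2 fold change of 0.25 (SE 0.20, adjusted p = 0.866) by edgeR and an interval from -0.24 to 0.75. Mdm4, the relative of MDM2 that blocks p53 without degrading it, had 324 and 323 CPM in KO and 324 and 266 CPM in WT, and WT replicate 2 alone was lower (log2 fold change 0.13, SE 0.22, adjusted p = 0.956 by edgeR). Ppm1d, the phosphatase that turns the damage signal off again, had 41.9 and 31.2 CPM in KO and 35.1 and 31.6 CPM in WT. Its groups overlapped, and its log2 fold change, 0.13 (SE 0.25, adjusted p = 0.965) by edgeR, was -0.092 without KO replicate 1.

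Cdkn2a, whose locus encodes the cell cycle inhibitor INK4A and the MDM2 antagonist ARF, had the lowest fold change of the 28 tested members. It had 4.58 and 2.52 CPM in KO and 5.10 and 16.0 CPM in WT, from 74, 43, 102 and 302 counts in the same order. Both KO libraries were below both WT libraries, but WT replicate 2 was far above the other 3. The log2 fold change was -1.57 (SE 0.71, adjusted p = 0.709) by edgeR, with an interval from -3.36 to 0.22. Leaving out WT replicate 2 gave -0.51, and leaving out WT replicate 1 gave -2.17. Counts per gene symbol do not separate the products of the locus.

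Among the arrest targets, Cdkn1a, which encodes the CDK inhibitor p21 and is the most used readout of p53 activity, had 53.1 and 56.1 CPM in KO and 19.7 and 53.7 CPM in WT. WT replicate 1 was lower than the other libraries, which were alike, so the groups overlapped. The log2 fold change was 0.57 (SE 0.48, adjusted p = 0.887) by edgeR, with an interval from -0.65 to 1.80. With WT replicate 2 left out it was 1.48 (edgeR adjusted p = 0.146; DESeq2 adjusted p = 0.096) and with WT replicate 1 left out 0.025. Ccng1, the gene of cyclin G1, had 136 and 92.4 CPM in KO and 102 and 123 CPM in WT. It showed no shift between the groups (log2 fold change 0.017, SE 0.26, adjusted p = 0.998 by edgeR), and the sign turned without KO replicate 1, at -0.28, without WT replicate 1, at -0.11, and with library sizes alone as scaling, at -0.036. The phosphatase gene Ptp4a3 had 96.4 and 97.0 CPM in KO and 88.2 and 119 CPM in WT, with overlapping groups and a log2 fold change of -0.098 (SE 0.22) that was 0.15 without WT replicate 2.

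Zmat3, an RNA-binding zinc finger protein through which p53 acts on splicing, had 4.14 and 2.99 CPM in KO and 8.55 and 6.79 CPM in WT, from 67, 51, 171 and 128 counts. The KO libraries were the lower pair and did not overlap with WT. The log2 fold change was -1.10 (SE 0.49, adjusted p = 0.692) by edgeR and -1.10 by DESeq2 (adjusted p = 0.474), with an edgeR interval from -2.33 to 0.12. The fold change stayed between -1.35 and -0.89 when each library was left out.

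Plk2, a polo-like kinase gene that p53 induces and that is also known to respond to growth signals as an early response gene, differed more within each group than between the groups. It had 0.309 and 12.2 CPM in KO and 1.10 and 5.68 CPM in WT, from 5, 207, 22 and 107 counts. KO replicate 2 was above KO replicate 1 by 4.87 and WT replicate 2 above WT replicate 1 by 2.26 on the log2 CPM scale. The fold change of KO over WT, 0.88 (SE 1.59), came to -3.42 without KO replicate 2 and to 1.84 without KO replicate 1. The immediate early genes were high in the same libraries: Fos had 408 and 2098 CPM in KO and 177 and 991 CPM in WT, and Jun had 383 and 2832 CPM in KO and 303 and 1002 CPM in WT. Of 10 immediate early and stress genes, none at 0 in every library, 10 were above 0 in log2 fold change. With a library left out, 8 of them changed sign, and without KO replicate 2 Fos was -0.52 and Jun -0.77. Hspa1a and Hspa1b kept their sign, at 1.11 and 2.68 without KO replicate 2. DESeq2 called 1 of the 10 genes, Hspa1b, higher in KO (adjusted p = 0.0379). Hspa1b had 101 and 1259 counts in KO and 8 and 29 counts in WT, so its groups did not overlap, with KO replicate 2 far the highest. The summed CPM of the 10 genes was 1453 and 9307 in KO and 992 and 3389 in WT. The part of that stress signal in Plk2 was not tested.

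Btg2 and Gadd45a, arrest and repair genes of the wider p53 list, had the same order of libraries as Fos and Jun. Plk2 shared with them only KO replicate 2 as the highest library and WT replicate 2 as the next. Btg2 and Gadd45a were picked out after their values were seen, Btg2 also being among the most abundant of its group. Btg2, an antiproliferative protein, had 63.2 and 396 CPM in KO and 27.1 and 151 CPM in WT, and Gadd45a, a stress sensor of the cell cycle, had 25.5 and 103 CPM in KO and 16.3 and 43.9 CPM in WT. Replicate 2 was the higher library in KO and in WT for both genes. Their log2 fold changes, 1.36 (SE 1.12) and 1.10 (SE 0.79), were -0.49 and -0.24 without KO replicate 2.

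**Figure D2:**
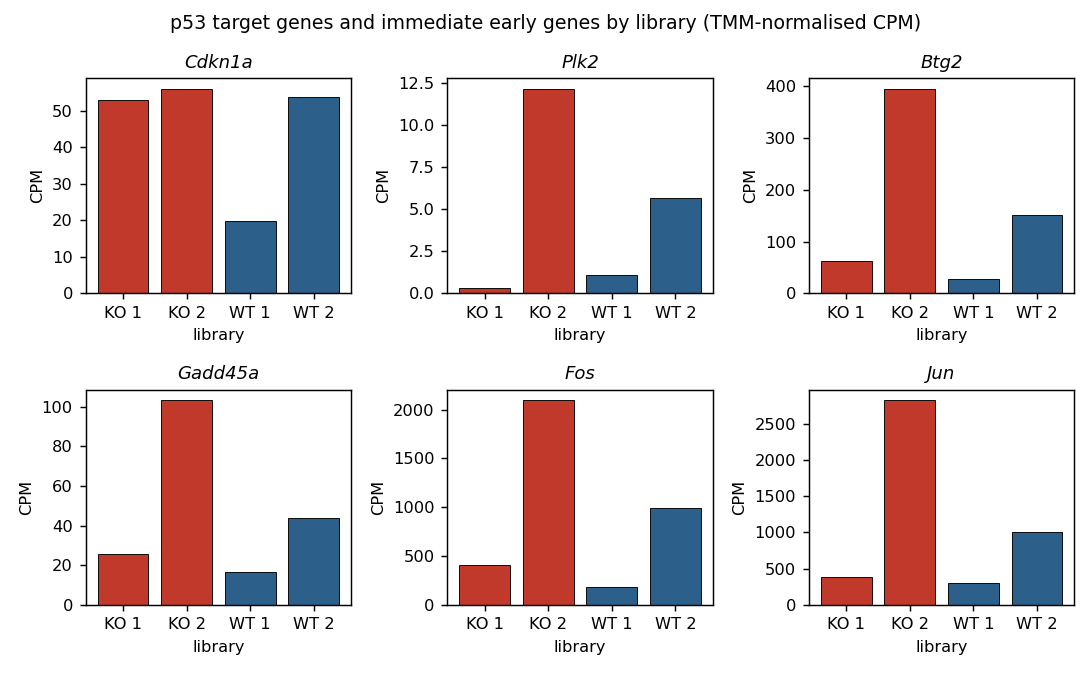
TMM-normalised CPM of Cdkn1a, Plk2, Btg2, Gadd45a, Fos and Jun in each of the KO (red) and WT (blue) libraries. For Plk2, Btg2, Gadd45a, Fos and Jun the KO 2 bar is the tallest and the WT 2 bar the next, while Cdkn1a is low in WT 1 alone.

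Of 7 tested apoptosis genes, 3 were above 0 and 4 below, with a median log2 fold change of -0.014. Trp53inp1, a nuclear protein that cooperates with p53 in stress and autophagy, had 47.1 and 52.5 CPM in KO and 27.3 and 31.2 CPM in WT. Both KO libraries were well above both WT libraries, and neither pair was far apart. Its log2 fold change was 0.77 (SE 0.22, adjusted p = 0.486) by edgeR, a 1.70-fold level with an interval from 0.21 to 1.33 on the log2 scale, and DESeq2 gave an adjusted p of 0.185. It kept between 0.68 and 0.88 with each library left out. It had the lowest edgeR p of the 28 members and remained above the threshold after adjustment over all genes.

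Tnfrsf10b, the mouse receptor of the death ligand TRAIL, was on the lower side. It had 1.42 and 1.59 CPM in KO and 4.55 and 3.61 CPM in WT, from only 23, 27, 91 and 68 counts. Both KO libraries were below both WT libraries, with a log2 fold change of -1.44 (SE 0.57, adjusted p = 0.651) by edgeR and a DESeq2 adjusted p of 0.445. Leaving out each library gave -1.58 to -1.26. Fas, another death receptor gene of the set, had 7.18 and 2.94 CPM in KO and 3.50 and 3.50 CPM in WT. KO replicate 1 alone was high, and the log2 fold change, 0.53 (SE 0.62), was -0.25 without it. Eda2r, the receptor of the ectodysplasin form EDA-A2, had 0 counts in each library, which allows a level of up to 0.150 to 0.186 CPM.

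Perp, a membrane protein of p53-dependent death, did not pass the filter on low counts. It had 2, 3, 61 and 7 counts in KO replicates 1 and 2 and WT replicates 1 and 2, so that WT replicate 1 held most of its reads. DESeq2, which ran without that filter, gave it an adjusted p of 0.348. Ei24, an endoplasmic reticulum protein of autophagy, had 116 and 95.8 CPM in KO and 92.7 and 87.0 CPM in WT, with KO above WT in all libraries and a log2 fold change of 0.24 (SE 0.20, adjusted p = 0.886) by edgeR. Pidd1, the death domain protein that activates caspase-2, had 53.2 and 57.8 CPM in KO and 57.8 and 54.3 CPM in WT, and its log2 fold change of -0.014 (SE 0.20) turned to 0.046 without KO replicate 1 and 0.033 without WT replicate 1. The nuclease gene Aen had 32.3 and 38.7 CPM in KO and 43.8 and 38.5 CPM in WT and overlapping groups, with a log2 fold change of -0.21 (SE 0.23). Phlda3, which competes with AKT for membrane lipids, had 2.60 and 0.294 CPM in KO and 1.30 and 2.28 CPM in WT, from 42, 5, 26 and 43 counts. KO replicate 2 alone was low, and the log2 fold change of -0.31 (SE 1.07, adjusted p = 0.984) by edgeR turned to 0.54 without KO replicate 2 and 0.16 without WT replicate 2.

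**Figure D3:**
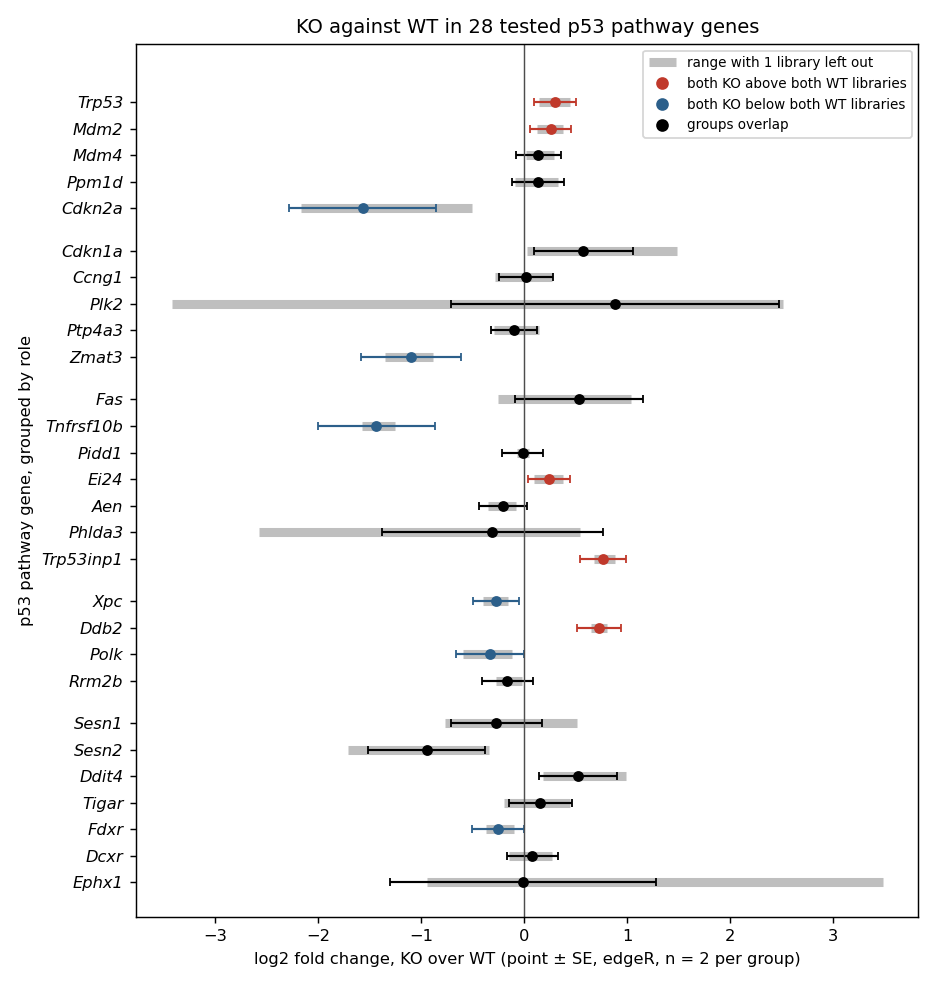
log2 fold change of KO over WT for the 28 tested p53 pathway genes, grouped by role, with points and bars for the edgeR estimate ± SE (n = 2 per group) and grey bands for the range with 1 library left out. Trp53inp1 and Ddb2 lie to the right of 0 and Tnfrsf10b and Zmat3 to the left with narrow to moderate bands. Cdkn2a lies to the left with a wide band, from -2.17 to -0.51, while the bands of Plk2, Phlda3 and Ephx1 cross 0 widely.

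The DNA repair targets held genes of the same step whose estimates lay on opposite sides of 0. Ddb2 and Xpc both recognise ultraviolet damage for nucleotide excision repair. Ddb2 (chromosome 2, 91211545 to 91237132), which is known to be induced by p53 in human cells but not in mouse cells, had 56.4 and 50.5 CPM in KO and 31.5 and 33.2 CPM in WT. The KO libraries were clearly the higher pair, and the log2 fold change was 0.72 (SE 0.21, adjusted p = 0.494) by edgeR, a 1.65-fold level, with an interval from 0.19 to 1.26. DESeq2 gave an adjusted p of 0.191, and the fold change kept between 0.65 and 0.80 with each library left out. Xpc (chromosome 6, 91489305 to 91515888) had 309.6 and 365 CPM in KO and 382 and 433 CPM in WT. Its KO libraries were the lower pair, by a smaller margin (log2 fold change -0.27, SE 0.22, adjusted p = 0.882 by edgeR). The interval of Xpc, from -0.83 to 0.29, included 0, and neither Ddb2 nor Xpc passed the adjusted threshold. Polk, a polymerase that copies past damaged bases, had 17.4 and 12.5 CPM in KO and 17.6 and 20.2 CPM in WT, with KO replicate 1 only just below WT replicate 1 and a log2 fold change of -0.34 (SE 0.33, adjusted p = 0.904) by edgeR. Rrm2b, the ribonucleotide reductase subunit that p53 induces to supply nucleotides for repair, had 26.5 and 29.6 CPM in KO and 34.3 and 28.6 CPM in WT, with overlapping groups and a log2 fold change of -0.16 (SE 0.25).

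Of 7 tested stress, metabolism and secreted targets, 3 were above 0 and 4 below, with a median log2 fold change of -0.012. The sestrin genes encode proteins that restrain the growth kinase complex mTORC1. Sesn2 had 7.05 and 16.9 CPM in KO and 15.4 and 30.9 CPM in WT. Replicate 2 was the higher library in KO and in WT, and KO replicate 2 lay just above WT replicate 1, so the groups overlapped. Its log2 fold change was -0.95 (SE 0.57, adjusted p = 0.804) by edgeR, with an interval from -2.38 to 0.49. Leaving out KO replicate 2 gave -1.71, and leaving out WT replicate 2 gave -0.34. Sesn1 had 43.4 and 37.6 CPM in KO and 28.7 and 69.2 CPM in WT, with WT replicate 2 alone high, and its log2 fold change of -0.27 (SE 0.44) was 0.51 without that library. Ddit4, also known as REDD1 and likewise an mTORC1 inhibitor, had 25.9 and 38.8 CPM in KO and 16.5 and 28.6 CPM in WT, again higher in replicate 2 of both groups, with a log2 fold change of 0.52 (SE 0.38). Leaving out WT replicate 1 brought it to 0.18, and leaving out WT replicate 2 to 0.99.

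Fdxr, the mitochondrial ferredoxin reductase gene, had 24.9 and 26.8 CPM in KO and 33.9 and 27.8 CPM in WT. Its KO libraries were below its WT libraries by a narrow margin, with a log2 fold change of -0.25 (SE 0.25, adjusted p = 0.905) by edgeR. Tigar, a phosphatase that diverts sugar from glycolysis, had 33.6 and 21.5 CPM in KO and 24.4 and 25.1 CPM in WT, and Dcxr, a carbonyl reductase gene, had 44.7 and 33.4 CPM in KO and 38.3 and 35.7 CPM in WT. Their groups overlapped, and their log2 fold changes, 0.16 (SE 0.31) and 0.078 (SE 0.25), turned to -0.20 and -0.14 without KO replicate 1. Ephx1, the microsomal epoxide hydrolase gene, had 21, 18, 2 and 43 counts in KO replicates 1 and 2 and WT replicates 1 and 2. WT replicate 1 was nearly empty, and the log2 fold change of -0.012 (SE 1.29) turned to 0.13 when KO replicate 2 was left out and to 3.48 when WT replicate 2 was. Gdf15, a secreted stress hormone, had 7, 12, 3 and 1 counts in the same order, too few to be tested, and DESeq2 gave an adjusted p of 0.878.

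The differences between libraries of the same group were set beside those between the groups. The median size of the log2 CPM difference between the libraries of a group was 0.28 in KO and 0.26 in WT over the 28 tested members. The median size of the fold change of KO over WT was 0.27. Over all tested genes these sizes were 0.425 in KO, 0.27 in WT and 0.26 for the fold change. A difference between single libraries and a fold change over 2 libraries per group are unlike measures, so their sizes do not compare directly. The sign of the fold change was kept with each of the 4 libraries left out in 17 of the 28 members, and in 6178 of the 12623 tested genes.

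The wider pathway was covered by 85 further gene names, of which 83 were in the files and 77 were tested. Of these, 0 were called higher or lower by edgeR, DESeq2 or voom, 4 had an unadjusted p under 0.05 by edgeR, 4 by voom and 6 by DESeq2, and 28 of 77 did not overlap between the groups, where 37.2% of all tested genes did not. Their median log2 fold change was 0.094. Among kinases and cofactors upstream of p53, 6 of 15 had a log2 fold change above 0: the acetyltransferase gene Ep300 had 146 and 227 CPM in KO and 134 and 166 CPM in WT, and Brd7, a bromodomain partner of p53, had 116 and 125 CPM in KO and 139 and 148 CPM in WT. The same held for 6 of 15 regulators and binding partners, a group that includes Trim28, a corepressor with 511 and 493 CPM in KO and 538 and 505 CPM in WT, and the ubiquitin ligase gene Huwe1 with 204 and 359.6 CPM in KO and 339.7 and 395 CPM in WT. The p53 relatives Trp63 and Trp73 had at most 2 counts in a library. Rpl5, Rpl11 and Npm1, whose products bind MDM2 during nucleolar stress, have many near-identical copies in the genome, so their counts are uncertain.

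Of 8 tested death targets, 2 were above 0 and none was free of overlap between the groups: Pmaip1, the NOXA gene, had 125 and 317 CPM in KO and 138 and 259 CPM in WT, Apaf1, the apoptosome scaffold, had 158 and 207 CPM in KO and 159 and 162 CPM in WT, and Bax had 81.8 and 51.8 CPM in KO and 83.2 and 73.8 CPM in WT. Of 11 growth arrest and repair genes, 9 were above 0 (median 0.46), and 8 did not overlap between the groups, with KO the higher in 7 of these, where 37.2% of all tested genes did not overlap and 18.1% had KO above WT. None of the 11 passed the test, the group is 1 of 5 in the wider list, and the 9 include Btg2 and Gadd45a, whose groups overlapped and whose sign turned without KO replicate 2. Pcna, the sliding clamp of replication, had 222 and 234 CPM in KO and 208 and 182 CPM in WT. The 4 genes with an unadjusted edgeR p under 0.05 were Bcl6, Pank1, Ckm and Rnf169, named after their values were seen. Bcl6, a transcriptional repressor of the arrest group, had 22.8 and 23.2 CPM in KO and 5.10 and 11.6 CPM in WT and a log2 fold change of 1.46 (SE 0.47, adjusted p = 0.545) by edgeR. Leaving out WT replicate 1 gave 0.99, and leaving out WT replicate 2 gave 2.18. Pank1, a coenzyme A synthesis gene, had 3.22 and 7.22 CPM in KO and 24.5 and 12.0 CPM in WT and a log2 fold change of -1.81 (SE 0.59, adjusted p = 0.56) by edgeR, which ran from -2.50 without KO replicate 2 to -1.20 without WT replicate 1. Ckm, the muscle creatine kinase gene, had 4.76 and 5.75 CPM in KO and 39.1 and 8.49 CPM in WT, and its log2 fold change of -2.18 (SE 0.76, adjusted p = 0.594) by edgeR was -0.69 without WT replicate 1, the high library. Rnf169, a ubiquitin ligase gene of the damage response, had 142 and 96.5 CPM in KO and 75.8 and 54.0 CPM in WT and a log2 fold change of 0.88 (SE 0.29, adjusted p = 0.564) by edgeR, which ran from 0.57 without KO replicate 1 to 1.15 without WT replicate 1. Of the metabolism and other targets, 20 of 28 were above 0, with Gpx1, a glutathione peroxidase gene, at 2021 and 1587 CPM in KO and 1433 and 1946 CPM in WT and Def6, a guanine exchange factor, at 351 and 365 CPM in KO and 309.8 and 370.2 CPM in WT.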

How the data were processed

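The authors deposited 1 file of raw counts per gene symbol for each of 4 RNA libraries. The submitters' processing notes name build mm10 and STAR 2.3.0, HTSeq, Picard, MACS2 and Bowtie2 2.2.5, with no role given. Annotation, strandedness and read filters were not stated, so counts of genes that overlap on either strand may be mixed.

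Rows of reads assigned to no gene, 5 per file and between 69.3% and 72.4% of all counts, were left out. Analyses used R 4.3.3. Genes were kept by filterByExpr of edgeR 4.0.16 and scaled by TMM, and KO was compared with WT by the quasi-likelihood F-test with robust moderation, no covariate and Benjamini-Hochberg adjustment over all 12623 genes at 0.05. The SE is the absolute log2 fold change over the root of the F statistic, and 95% intervals use the test's degrees of freedom. DESeq2 1.42.0 was run on all 16651 genes with reads and limma 3.58.1 (voom) on the 12623. Differences within a group are log2 CPM with a prior count of 2. The chi-square between replicates, divided by its degrees of freedom, was 109 in KO and 80.5 in WT, above counting noise, so no pair was treated as 1 library deposited under different names. This does not show that the libraries came from separate animals. Other alternatives were RLE factors, library sizes alone, no filter, no robust moderation, a replicate block and leaving out each library. The DESeq2 fits with a library left out were added after seeing the data. The tests were also run on simulated counts, whose spread was fixed alike for every gene and not taken from these libraries. That check does not show which changes the tests could find here.

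Named in full were Trp53 and its regulators, members past either test, members without overlap and 5 usual readouts, and from the wider list the 2 most abundant genes per role. Bax was given in addition, outside that rule. The members and lists were chosen with earlier results of these data known. Coordinates and promoters are RefSeq's for GRCm38.p6, the assembly that mm10 names.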

Additional observations from a re-analysis of the deposited data

How the results depend on the processing

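No p53 member was called under any of the 15 alternatives run, and of 420 single-member values 383 kept their sign. Calls over all genes were 352 by DESeq2, 4 with edgeR and no filter on low counts, and 11 with the replicate block, and ran from 0 to 156 by edgeR with a library left out. DESeq2 called 178 genes without KO replicate 1, 384 without KO replicate 2, 162 without WT replicate 1 and 390 without WT replicate 2. The block moved no member past the threshold. Same-numbered libraries deviated together with a correlation of 0.19 across genes, over 2 pairs only, and the labels do not say that the numbers pair the libraries. In the wider list, calls ran from 0 to 3 by edgeR with a library left out. edgeR called Ckm, Dram1 and Thbs1 without WT replicate 2, and DESeq2 called 4, these and Bcl6, without WT replicate 2 and 2, Pank1 and Prkdc, without KO replicate 2. Its median log2 fold change was 0.023 with library sizes alone and -0.015 to 0.13 by edgeR with a library left out. By DESeq2 that median was 0.045 and -0.011 without KO replicates 1 and 2, and 0.019 and 0.13 without WT replicates 1 and 2. The 37 sign changes fell on 11 members. By voom Ccng1 was -0.0035, Plk2 -0.25 and Ephx1 1.19, with library sizes alone Ccng1 was -0.036, and with the block Ccng1 was -0.0031, Plk2 -0.11 and Ephx1 0.85. With a library left out, the edgeR log2 fold change ran from -0.28 to 0.27 for Ccng1, -3.42 to 2.51 for Plk2, -0.95 to 3.48 for Ephx1, -0.092 to 0.33 for Ppm1d, -0.25 to 1.03 for Fas, -0.076 to 0.046 for Pidd1, -0.20 to 0.44 for Tigar, -0.14 to 0.27 for Dcxr, -2.58 to 0.54 for Phlda3, -0.30 to 0.15 for Ptp4a3 and -0.77 to 0.51 for Sesn1. By DESeq2 the signs also turned as follows. Without KO replicate 1, Ppm1d was -0.083, Ccng1 -0.28, Fas -0.24, Pidd1 0.055, Tigar -0.19 and Dcxr -0.14. Without KO replicate 2, Plk2 was -3.45, Phlda3 0.54 and Ephx1 0.13. Without WT replicate 1, Ccng1 was -0.10 and Pidd1 0.040. Without WT replicate 2, Ptp4a3 was 0.14, Phlda3 0.15, Sesn1 0.51 and Ephx1 3.57. Overlap was not recounted with a library left out. The cause of these changes was not tested. Each such fit took the spread of the remaining single library from the group that kept both.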

Other observations

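Sesn2, Ddit4 and Gdf15 are also known to be switched on by ATF4, the factor of the integrated stress response, and were listed with 7 other genes of that response. The 10 genes summed to 519 and 665 in KO and 383 and 420.5 in WT in CPM, most of it from Atf4 itself, which had 322 and 486 CPM in KO and 258 and 286 CPM in WT. Of 9 tested, 8 were above 0 and 0 were called by DESeq2, but 3 of them changed sign with a library left out: Trib3, at 0.0043, ran from -0.39 to 0.57, Asns from -0.64 to 0.92 and Vldlr from -5.34 to 1.52 on the log2 scale. Chac1, a glutathione-degrading enzyme of this response, had 4.70 and 3.52 CPM in KO and 0.900 and 0.902 CPM in WT, the KO libraries being the higher pair (log2 fold change 2.18, SE 0.60, adjusted p = 0.463 by edgeR, and adjusted p = 0.0786 by DESeq2). It was named after its values were seen.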
